A study of Mus musculus with 10 samples.

Results

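A set of 10 genes of iron and metal handling was followed across the 5 treatment groups of the series, namely *Tfrc*, *Slc11a2*, *Slc39a14*, *Slc11a1*, *Fth1*, *Ftl1*, *Slc40a1*, *Lcn2*, *Mt1* and *Mt2*. They were taken by name from the 55573 genes of the table, with earlier results of these data known. Their counts and medians beside those of all genes are therefore description and not a test of the set. All 10 were among the 11978 genes with at least 1 CPM (a gene's reads, scaled so that every library has an equal total) in at least 2 libraries, which were the genes tested. The cells were BMDMs, macrophages grown with M-CSF from bone marrow of wild-type female C57BL/6 mice, and all groups were harvested 4 hours after treatment. Each group had 2 libraries, 10 in all. Vehicle was the control. polyU was 5 µg of single-stranded polyuridine RNA complexed with the lipid DOTAP, and the labels name DOTAP for no group without polyU. PNPi+dG/rG was 1 µM ulodesine, an inhibitor of the purine-degrading enzyme PNP, with 5 µM deoxyguanosine and 5 µM guanosine. PNPi+dG/rG+polyU was both of these together and is called the combined treatment here, and R848 was 1 ng/mL of a synthetic TLR7 agonist. The study asked how macrophages respond to guanosines and RNA, the natural ligands of the 2 binding sites of TLR7, and how that response compares with R848. Replicates are labelled biological, without saying whether they came from separate mice or cultures, so p-values measure only the spread between these libraries, which may be technical.

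Macrophages take up iron bound to transferrin through the transferrin receptor, and also from engulfed red cells. Iron crosses the endosomal membrane through divalent metal transporters, is held in the cytosol inside ferritin shells built of heavy and light chains, and leaves the cell through ferroportin, the only known cellular iron exporter. In inflammation, macrophages are known to hold iron back from the circulation, and they deny metals to microbes with lipocalin 2, which binds bacterial siderophores, with transporters that empty the phagosome of metal, and with metallothioneins, small cysteine-rich proteins that bind zinc and copper. Several of these genes are also controlled after transcription, since iron regulatory proteins bind a hairpin in the mRNA, the iron-responsive element.

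Depth ranged from 14128123 to 38392607 reads on genes per library, so that 3 reads, the smallest amount taken as detectable, corresponded to 0.0781 to 0.212 CPM. Of the 15 macrophage markers, all were above that floor in both libraries of every group, and their sum was 20947 to 23682 CPM. CPM are shares of a library, and the median of all tested genes differed from vehicle by -0.50 (log2) with R848 and by -0.22 with the combined treatment. The medians of the libraries themselves lay a little further apart, and centring each library on its median adds 0.59 to every R848 difference and 0.21 to every difference of the combined treatment, and values after centring are given beside results that change with it. The sum of 10 fibroblast and stromal markers was 0.730 to 1.41 CPM with vehicle, 4.74 to 5.98 with the combined treatment and 152 to 162 with R848, where *Col1a1* reached 58.3 CPM while *Lum* and *Thy1* stayed near 0. The part of these cells or genes in the R848 results was not tested. Fewer cells of a type and less RNA per cell cannot be told apart in these bulk samples.

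The hairpins that carry the iron response are shown first. Genes found with one fall into those known to be repressed in translation and those known to be stabilised as mRNA when iron is low. A search of the annotated untranslated regions (GENCODE M21, GRCm38) for an unpaired C, a 5-base paired stem and a loop of CAGTGN, with any last base but G, found 1 such hairpin in the 5′ UTR of *Fth1*, *Ftl1* and *Slc40a1* and 4 in the 3′ UTR of *Tfrc*. Only 23 of 21901 coding genes (0.105%) had a match in the 5′ UTR and 100 (0.4566%) had one in the 3′ UTR. Capitals mark the loop.
Fth1, 5′ UTR, chr19:9982732-9982760, plus strand: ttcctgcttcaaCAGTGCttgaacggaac
Ftl1, 5′ UTR, chr7:45459779-45459807, minus strand: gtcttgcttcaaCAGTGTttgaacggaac
Slc40a1, 5′ UTR, chr1:45925465-45925493, minus strand: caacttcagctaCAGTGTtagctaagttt
Tfrc, 3′ UTR, chr16:32631219-32631247, plus strand: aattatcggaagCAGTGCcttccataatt
Tfrc, 3′ UTR, chr16:32631598-32631626, plus strand: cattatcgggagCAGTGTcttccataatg
Tfrc, 3′ UTR, chr16:32631663-32631691, plus strand: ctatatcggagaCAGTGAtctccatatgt
Tfrc, 3′ UTR, chr16:32631710-32631738, plus strand: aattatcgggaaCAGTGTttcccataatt
The hairpin is not in every transcript of these genes. It was found in 4 of 5 coding transcripts of *Fth1*, 1 of 2 of *Ftl1*, 1 of 4 of *Slc40a1* and 1 of 3 of *Tfrc*. No match was found in the other 6 genes, which says only that this pattern is not in their annotated untranslated regions. All 5 bases of the stem had to pair, so a hairpin with a bulge or mispair there would be missed. The search therefore does not show that these genes, *Slc11a2* among them, lack an iron-responsive element.

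The promoters of the paired metallothionein genes are shown because they lie side by side and their transcripts moved by different amounts. *Mt2* and *Mt1* are both on the plus strand of chromosome 8, with 5513 bases between the end of *Mt2* and the start of *Mt1*. MTF1, the zinc-sensing transcription factor, is known to bind metal response elements, whose core is TGCACNC or TGCGCNC. Both cores were searched on both strands, and a match on the other strand reads as its reverse complement. The 250 bases before each start (RefSeq, GRCm38.p6) follow, with matches in capitals.
Mt2, chr8:94172368-94172617, plus strand: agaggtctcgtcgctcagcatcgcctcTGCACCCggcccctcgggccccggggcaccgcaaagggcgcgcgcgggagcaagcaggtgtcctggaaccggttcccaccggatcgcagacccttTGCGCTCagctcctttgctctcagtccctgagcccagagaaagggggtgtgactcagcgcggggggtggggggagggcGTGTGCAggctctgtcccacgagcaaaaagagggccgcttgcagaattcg
Mt1, chr8:94178839-94179088, plus strand: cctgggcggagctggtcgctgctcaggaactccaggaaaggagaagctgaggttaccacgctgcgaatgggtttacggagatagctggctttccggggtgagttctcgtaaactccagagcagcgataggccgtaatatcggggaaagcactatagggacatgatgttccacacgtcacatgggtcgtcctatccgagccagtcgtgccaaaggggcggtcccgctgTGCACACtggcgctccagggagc
In the 300-base window that also holds 50 bases after the start, *Mt2* had 4 matches and *Mt1* had 3. These counts hold for the RefSeq start used, and matches around other starts were not searched. For *Mt2* that start lies before the GENCODE gene start at 94172664. The counts therefore do not compare the whole promoters of the genes. Of 32851 promoter windows of that length, 25.7% held at least 1 match, 1.969% at least 3 and 0.5175% at least 4. Windows were matched for 7 of the 10 genes. *Tfrc* had 2 overlapping matches in 1 of its windows, and *Fth1*, *Ftl1*, *Slc11a1* and *Lcn2* had 0. A match is a description of the letters and not a site in use.

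*Slc11a2* rose with polyU, with the combined treatment and with R848, while *Lcn2* and *Slc39a14* rose with the combined treatment and far more with R848, and *Mt2* rose 10.2-fold with R848. Calls needed 2-fold or more together with an adjusted p-value under 0.05 (limma, over all genes tested), and "rose" or "fell" without a fold stands for an adjusted p-value under 0.05. With polyU 1 of the 10 genes was called, against 3.99% of all genes in either direction and 3.21% higher, and 6 passed at any fold, against 39.3%. With PNPi+dG/rG none was called, against 0.0751% of all genes, and none passed at any fold, against 0.801%. For that comparison limma gave 1076 genes at an unadjusted p-value under 0.05. With the combined treatment 3 genes were called, all higher, against 22.4% of all genes in either direction and 8.12% higher. With R848 4 genes were called, all higher, against 39.2% in either direction and 8.89% higher. At any fold all 10 genes passed with the combined treatment, 7 higher and 3 lower, but 68.9% of all genes did so as well, and 8 of 10 passed with R848 against 82.1%. The median difference of the 10 genes was 0.33 (log2) with the combined treatment and 0.64 with R848, beside -0.22 and -0.50 over all genes. These 4 comparisons share the same 2 vehicle libraries.

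**Figure D1:**
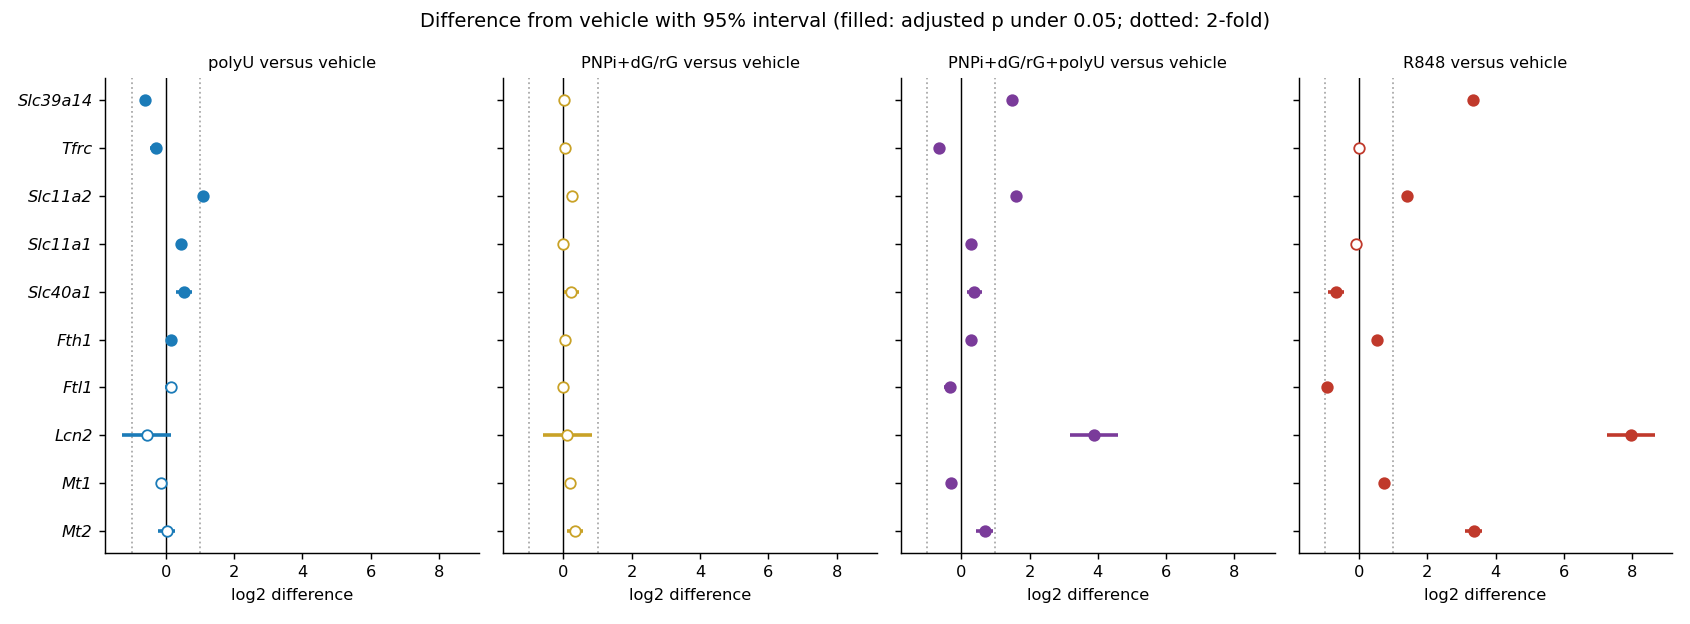
Log2 difference from vehicle of each of the 10 genes in the 4 treatment groups, with the 95% interval of the limma model (bars); filled points have an adjusted p-value under 0.05 and dotted lines mark 2-fold. With PNPi+dG/rG no point is filled, and with R848 *Lcn2*, *Mt2*, *Slc39a14* and *Slc11a2* lie above the 2-fold line; centring the libraries would move every R848 point to the right by 0.59, which also takes *Slc11a1* from -0.08 to 0.52.

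*Slc11a2* (ENSMUSG00000023030, GRCm38 chr15:100387898-100425072, minus strand) encodes DMT1, the transporter that moves ferrous iron out of endosomes, and it was the only one of the 10 genes called with polyU alone. Its values were 84.4 and 93.1 CPM with vehicle, 177 and 198 with polyU, 104 and 108 with PNPi+dG/rG, 265 and 274 with the combined treatment, and 229.6 and 242 with R848. No 2 groups overlapped. With polyU the gene was 2.11-fold higher (log2 1.08 ± 0.06 SE, adjusted p = 1.94e-09), but leaving out polyU replicate 2 left a difference of 0.997, just under 2-fold. With the combined treatment it was 3.04-fold higher (log2 1.60, adjusted p = 1.39e-12) and with R848 2.66-fold higher (log2 1.41, adjusted p = 3.46e-12). The difference with PNPi+dG/rG alone was 0.25 (95% interval 0.13 to 0.38) and did not pass (adjusted p = 0.0743). In the order of levels the combined treatment came first, then R848, polyU, PNPi+dG/rG and vehicle, and all neighbours except the last pair passed the test between them. The combined treatment stood 0.19 above R848 before centring (adjusted p = 0.00988) and 0.19 below it after (adjusted p = 0.0141), so their order depends on the scaling.

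*Slc11a1* (ENSMUSG00000026177, chr1:74375195-74386062, plus strand) encodes NRAMP1, the related transporter of the phagosome membrane of macrophages. It was at 399 and 411 CPM with vehicle, 548 and 563 with polyU, 397 and 401 with PNPi+dG/rG, 497 and 490.3 with the combined treatment, and 377 and 391 with R848. Before centring both groups given polyU lay above all other libraries, polyU alone highest. The gene rose by 0.46 (log2) with polyU (adjusted p = 1.96e-07) and by 0.29 with the combined treatment (adjusted p = 7.77e-06), both under 2-fold. With R848 the difference was -0.08 (95% interval -0.16 to 0.01, adjusted p = 0.0764) and turned to 0.52 after centring (adjusted p = 4.96e-09), beside centred values of 0.50 with the combined treatment and 0.41 with polyU. Vehicle, PNPi+dG/rG and R848 were not apart in the order of levels before centring.

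*Tfrc* (ENSMUSG00000022797, chr16:32608920-32632794, plus strand), the transferrin receptor, fell with polyU and further with the combined treatment. Its values were 148 and 135 CPM with vehicle, 127 and 105 with polyU, 143 and 148 with PNPi+dG/rG, 89.8 and 91.4 with the combined treatment, and 145 and 138 with R848. Libraries of the combined treatment were below all others, and R848 lay inside the vehicle range. The fall was 0.29 on the log2 scale with polyU (adjusted p = 0.00657), but without polyU replicate 2 the difference was -0.16 (adjusted p = 0.0865), and it did not pass without vehicle replicate 1 either. The difference was -0.64 (1.56-fold lower) with the combined treatment (adjusted p = 3.16e-06). With R848 the difference was 0.00 (95% interval -0.16 to 0.16, adjusted p = 0.972), which centring took to 0.60 (adjusted p = 2.68e-06). PNPi+dG/rG, R848 and vehicle did not differ beyond their spread, and polyU and the combined treatment followed in that order. The 4 *Tfrc* hairpins shown above lie in the 3′ UTR of the transcript, and these data hold no measure of its stability.

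*Slc39a14* (ENSMUSG00000022094, chr14:70303469-70351425, minus strand) encodes ZIP14, a surface importer of zinc, manganese and iron not bound to transferrin. It was at 69.7 and 75.4 CPM with vehicle, 51.1 and 44.9 with polyU, 73.7 and 72.2 with PNPi+dG/rG, 198 and 212 with the combined treatment, and 720.1 and 752 with R848. polyU alone was below all other groups, PNPi+dG/rG lay inside the vehicle range, and R848 was far above the combined treatment, which was above vehicle. It fell by 0.60 on the log2 scale with polyU (adjusted p = 1.97e-06), was 2.83-fold higher with the combined treatment (log2 1.5, adjusted p = 5.21e-12) and was 10.1-fold higher with R848 (log2 3.34, adjusted p = 1.72e-16). With PNPi+dG/rG the difference was 0.01 (95% interval -0.12 to 0.14), and -0.02 after centring. Only vehicle and PNPi+dG/rG were not apart in the order of levels.

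**Figure D2:**
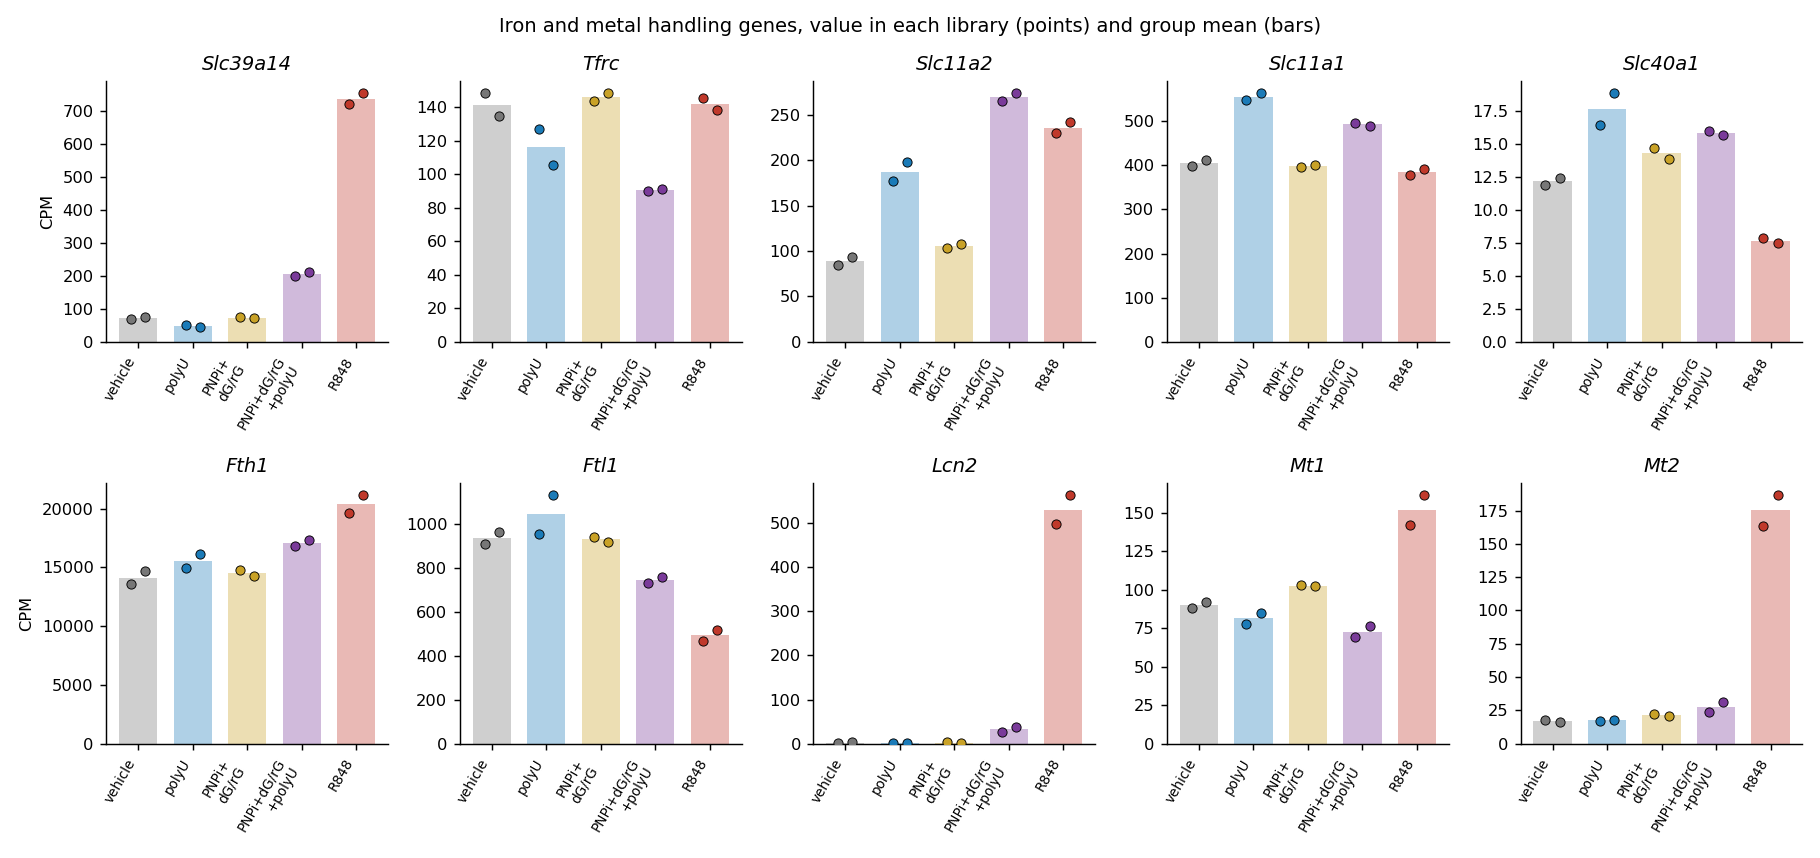
CPM of each of the 10 genes in each library (points) and the group mean (bars), one panel per gene with its own axis from 0, groups along the horizontal axis. *Lcn2*, *Slc39a14* and *Mt2* are highest with R848, *Slc11a2* has both PNPi+dG/rG+polyU points at 265 and 274 above the R848 points, an order that centring reverses. *Slc11a1* is highest with polyU as plotted, but after centring its differences from vehicle are 0.52 with R848, 0.50 with PNPi+dG/rG+polyU and 0.41 with polyU.

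Both ferritin chains were abundant, and the balance between them differed with the treatment. *Fth1* (ENSMUSG00000024661, chr19:9980598-9985098, plus strand), the heavy chain with the ferroxidase activity, was the highest of the 10 genes in every library, at 13579 and 14670.4 CPM with vehicle, 14981 and 16188 with polyU, 14766 and 14315 with PNPi+dG/rG, 16820 and 17353 with the combined treatment, and 19631 and 21162 with R848. It took up 1.36% to 2.12% of all reads on genes. R848 lay above all other libraries then the combined treatment, while polyU lay above vehicle and PNPi+dG/rG, and these overlapped each other. *Fth1* was 1.44-fold higher with R848 (log2 0.53, adjusted p = 3.08e-07; 1.12 after centring, which is over 2-fold) and rose by 0.28 with the combined treatment (adjusted p = 0.000214). The rise of 0.14 with polyU (adjusted p = 0.0326) was 0.10 after centring and then did not pass (adjusted p = 0.136), and it was 0.0860 and did not pass without polyU replicate 2 or without vehicle replicate 1.

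*Ftl1* (ENSMUSG00000050708, chr7:45457944-45459884, minus strand), the light chain that aids the mineral core, was at 909 and 962 CPM with vehicle, 956 and 1131 with polyU, 941 and 919 with PNPi+dG/rG, 732 and 761 with the combined treatment, and 467 and 517 with R848. R848 was below every other library and the combined treatment below the remaining 6. It fell with R848 (log2 -0.93, 1.90-fold lower, adjusted p = 6.79e-07; -0.33 after centring, adjusted p = 0.00365). It also fell by 0.33 with the combined treatment (adjusted p = 0.00278), but the value after centring was -0.11 and did not pass (adjusted p = 0.233). The ratio of *Fth1* to *Ftl1* CPM within a library, which centring does not touch, was 14.9 and 15.3 with vehicle, 15.7 and 14.3 with polyU, 15.7 and 15.6 with PNPi+dG/rG, 22.97 and 22.8 with the combined treatment, and 42.0 and 40.9 with R848. The ratio shows unequal change of the chains and not which of them moved.

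The *Ftl1* values are uncertain. Of the 968 stretches of 50 bases in its transcripts, the length of a read, 834 (86.2%) also occur in at least 1 of 17 other genes, among them the pseudogenes *Ftl1-ps1*, *Ftl1-ps2* and *Ftl2-ps*, which were listed at no more than 1.40 CPM. The counting rule for such reads is not given in the sources used here. *Fth1* shared 3.59% of its stretches, with *Gm6977*, and *Mt2* shared 45.8% with the antisense gene *Gm45774*, listed at up to 0.429 CPM. *Slc40a1*, *Tfrc*, *Mt1* and *Lcn2* shared none.

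The mRNA of *Slc40a1* (ENSMUSG00000025993, chr1:45908068-45926523, minus strand), which encodes ferroportin, was low in these cells, and the protein was not measured. *Slc40a1* was at 11.9 and 12.4 CPM with vehicle, 16.4 and 18.8 with polyU, 14.7 and 13.8 with PNPi+dG/rG, 16.0 and 15.7 with the combined treatment, and 7.86 and 7.47 with R848. R848 was below all other libraries, and the 3 other treatments were all above vehicle. The rise was 0.53 (log2) with polyU (95% interval 0.31 to 0.76, adjusted p = 0.000903) and 0.38 with the combined treatment (adjusted p = 0.00478), and the value of 0.23 with PNPi+dG/rG did not pass (adjusted p = 0.543). With R848 it was 1.59-fold lower (log2 -0.67, adjusted p = 2.86e-05), which became -0.07 after centring (adjusted p = 0.556). polyU, the combined treatment, PNPi+dG/rG and vehicle followed in that order with no neighbours apart, and R848 was apart from vehicle. Hepcidin, the hormone that degrades ferroportin, is encoded by *Hamp*, which had 0 reads in most libraries and reached no more than 0.212 CPM, so it was not tested.

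*Lcn2* (ENSMUSG00000026822, chr2:32384633-32388252, minus strand), lipocalin 2, had the largest differences of the 10 genes with the combined treatment and with R848. It was at 1.85 and 2.42 CPM with vehicle, 1.08 and 1.92 with polyU, 2.55 and 2.03 with PNPi+dG/rG, 25.7 and 38.2 with the combined treatment, and 499 and 564 with R848. The vehicle values stand on 33 and 43 reads, the combined ones on 363 and 543 and the R848 ones on 9390 and 18424. The first 3 groups overlapped, the combined group was well above them and R848 was above that. *Lcn2* was 14.8-fold higher with the combined treatment (log2 3.89, 95% interval 3.17 to 4.60, adjusted p = 8.82e-06) and 251-fold higher with R848 (log2 7.97, 95% interval 7.26 to 8.68, adjusted p = 4.69e-08). With polyU alone the difference was -0.56 (95% interval -1.27 to 0.16, adjusted p = 0.199) and with PNPi+dG/rG 0.11 (95% interval -0.61 to 0.82, adjusted p = 0.971), so that changes within these intervals were not detectable at this depth and with 2 libraries a group. *Lcn2* is also a gene of neutrophil granules. The sum of 14 neutrophil markers was 52.7 to 57.7 CPM with vehicle, 164 to 198 with the combined treatment and 341 to 354 with R848. Most of the R848 sum was *Csf3r* (166 and 180 CPM), *Mmp9* (111 and 109) and *Mmp8* (40.9 and 40.2). Of 7 tested, 5 were called higher and 2 lower with R848, where 8.89% of all genes were higher and 30.3% lower. *S100a8* was 12.4-fold higher, and *Camp* had 0 and 1 reads in vehicle and 36 and 59 in R848. Of the 14, 8 had 0 reads in both R848 libraries, and *Ly6g* and *Retnlg* had 0 reads in all 10 libraries. Among the 8 were *Ngp*, with 20 and 18 reads in vehicle, and *Ltf*, with 11 and 19. *Elane*, *Mpo* and *Cxcr2*, also among them, had at most 2 reads in a vehicle library. The part of neutrophils in the *Lcn2* values was not tested.

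Both metallothioneins rose with R848, *Mt2* far more than *Mt1*, and with the combined treatment *Mt2* rose while *Mt1* did not. *Mt1* (ENSMUSG00000031765, chr8:94179082-94180327, plus strand) was at 88.0 and 92.4 CPM with vehicle, 77.8 and 85.0 with polyU, 103 and 102 with PNPi+dG/rG, 69.0 and 76.5 with the combined treatment, and 142 and 162 with R848. *Mt2* (ENSMUSG00000031762, chr8:94172664-94173568, plus strand) was at 18.0 and 16.2 CPM with vehicle, 17.1 and 17.7 with polyU, 22.1 and 20.9 with PNPi+dG/rG, 24.0 and 31.4 with the combined treatment, and 164 and 187 with R848. For both genes R848 was above all other libraries, but the combined group was lowest for *Mt1* and second for *Mt2*. *Mt2* was 10.2-fold higher with R848 (log2 3.36, 95% interval 3.12 to 3.60, adjusted p = 1.53e-12) and *Mt1* 1.68-fold higher (log2 0.75, adjusted p = 6.42e-08; 1.34 after centring, which is over 2-fold). With the combined treatment *Mt2* was 1.61-fold higher (log2 0.68, adjusted p = 8.53e-05), while *Mt1* fell by 0.31 (adjusted p = 0.000925), a fall that was 0.10 after centring and then did not pass (adjusted p = 0.21). For PNPi+dG/rG alone the *Mt2* difference was 0.33 (95% interval 0.09 to 0.57, adjusted p = 0.294) and that of *Mt1* 0.19 (adjusted p = 0.35).

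The ratio of *Mt2* to *Mt1* CPM does not depend on the scaling of a library. It was 0.205 and 0.175 with vehicle, 0.219 and 0.208 with polyU, 0.214 and 0.204 with PNPi+dG/rG, 0.348 and 0.410 with the combined treatment, and 1.15 and 1.15 with R848. Vehicle, polyU and PNPi+dG/rG stayed at or below 0.219, the combined treatment lay above them, and both R848 libraries had more *Mt2* than *Mt1* reads. In the 300-base windows *Mt2* held 1 more match to the metal response element core than *Mt1*, a count that depends on the start used for each gene. *Mtf1*, which encodes the factor that binds that element, was 0.30 higher with R848 (log2, adjusted p = 0.000617), and centring adds 0.59 to that difference. Whether that factor acts on either promoter in these cells was not measured.

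Genes were set beside each other only roughly, per kilobase of the exons of all coding transcripts of a gene together. The level with vehicle was 8729.6 CPM per kb for *Fth1*, 967 for *Ftl1*, 174 for *Slc11a1*, 72.4 for *Mt1*, 29.1 for *Mt2*, 26.7 for *Tfrc*, 14.2 for *Slc11a2*, 12.98 for *Slc39a14*, 3.51 for *Slc40a1* and 1.73 for *Lcn2*. For *Mt1* these exons cover its whole gene, 1246 bases, beside 588 bases for *Mt2*. The *Mt1* value is thus lower than a shorter transcript would give. With R848 *Lcn2* moved from last place to place 3, at 429.9 CPM per kb behind *Fth1* at 12606 and *Ftl1* at 508, and *Mt2* reached 298. *Slc40a1* was then last, at 2.21 CPM per kb.

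Guanosines with PNP inhibition were next compared in the presence of polyU, and the interaction was tested, that is, how much the log2 effect of PNPi+dG/rG changed once polyU was there. Against polyU alone, the combined treatment gave 2 called genes, both higher, *Lcn2* at 21.8-fold (log2 4.44, adjusted p = 5.21e-06) and *Slc39a14* at 4.28-fold (log2 2.10, adjusted p = 2.16e-13), where 15.5% of all genes were called in either direction and 5.29% higher. At any fold 8 of the 10 passed, against 63.3%. Below 2-fold, *Slc11a2* rose by 0.52 (adjusted p = 1.85e-06) and *Mt2* by 0.66 (adjusted p = 0.000155). *Ftl1* fell by 0.48 (adjusted p = 0.000257) and *Tfrc* by 0.35 (adjusted p = 0.001; after centring the fall was 0.09 and did not pass). *Slc11a1* fell by 0.17 (adjusted p = 0.00127) but was 0.08 higher after centring.

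At 2-fold or more the interaction called *Lcn2* and *Slc39a14*, both higher, against 13.4% of all genes in either direction and 4.55% higher. At any fold 8 of the 10 passed, against 50.7%. For *Lcn2* it was 4.34 ± 0.43 (log2, SE; 95% interval 3.33 to 5.35; adjusted p = 9.42e-05), and for *Slc39a14* 2.09 ± 0.09 (95% interval 1.90 to 2.28; adjusted p = 4.23e-11). *Slc39a14* was 0.60 lower with polyU, 0.01 higher with PNPi+dG/rG and 1.5 higher with both. *Slc11a2* had a positive interaction of 0.27 (adjusted p = 0.0154), under 2-fold, or 0.56 after centring. It did not pass in 5 of 18 alternatives, among them leaving out polyU replicate 1, which gave 0.19. Those of *Ftl1* (-0.47, adjusted p = 0.00412), *Tfrc* (-0.39, adjusted p = 0.0068), *Mt1* (-0.35, adjusted p = 0.00789) and *Slc40a1* (-0.38, adjusted p = 0.0449) were negative, kept that sign after centring and then did not pass, while that of *Slc11a1* (-0.15, adjusted p = 0.0341) became 0.14. The *Slc40a1* interaction did not pass in 10 of the 18 alternatives, and that of *Slc11a1* did not pass in 8. *Mt2* had an interaction of 0.33 (95% interval -0.01 to 0.67, adjusted p = 0.0983), which passed at 0.61 after centring (adjusted p = 0.00621) and at 0.52 without replicate 1 of the combined treatment (adjusted p = 0.00601). For *Fth1* it was 0.09 (adjusted p = 0.279), which passed at 0.38 after centring (adjusted p = 0.000824).

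**Figure D3:**
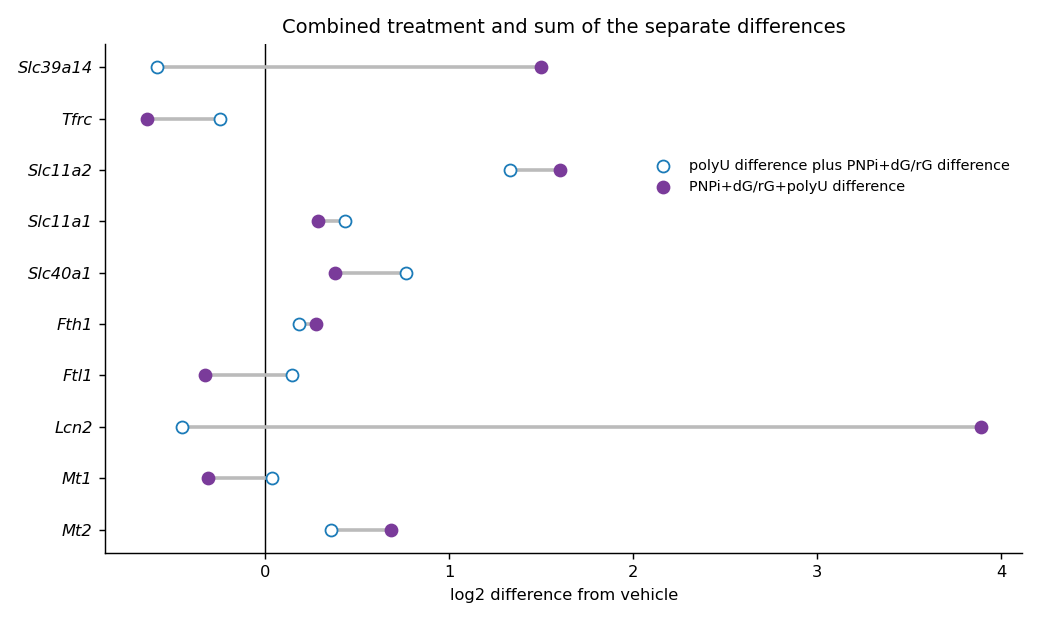
For each of the 10 genes, the log2 difference from vehicle of PNPi+dG/rG+polyU (filled) and the sum of the separate polyU and PNPi+dG/rG differences (open); the gap is the interaction. The gap is 4.34 for *Lcn2* and 2.09 for *Slc39a14*, and for *Slc11a1* it is -0.15, or 0.14 after centring.

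The combined natural ligands were then set against R848, each at its 1 dose. With the combined treatment *Slc40a1* was 2.07-fold higher than with R848 (log2 1.05, adjusted p = 3.46e-07), though only 0.66 higher after centring, which is under 2-fold. Lower by at least 2-fold were *Lcn2*, 16.9-fold (log2 -4.08, adjusted p = 6.74e-06), *Mt2*, 6.37-fold (log2 -2.67, adjusted p = 7.56e-11), *Slc39a14*, 3.59-fold (log2 -1.84, adjusted p = 1.16e-12), and *Mt1*, 2.09-fold (log2 -1.06, adjusted p = 2.33e-09). These 5 of 10 genes compare with 20.7% of all genes called, 16.9% higher and 3.86% lower. At any fold all 10 passed, against 70.7%. *Mt1* dropped just under 2-fold without replicate 1 of the combined treatment and without R848 replicate 2, when it came to -0.97. *Tfrc* was 0.64 lower (adjusted p = 3.25e-06), and 1.03 lower after centring.

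**Figure D4:**
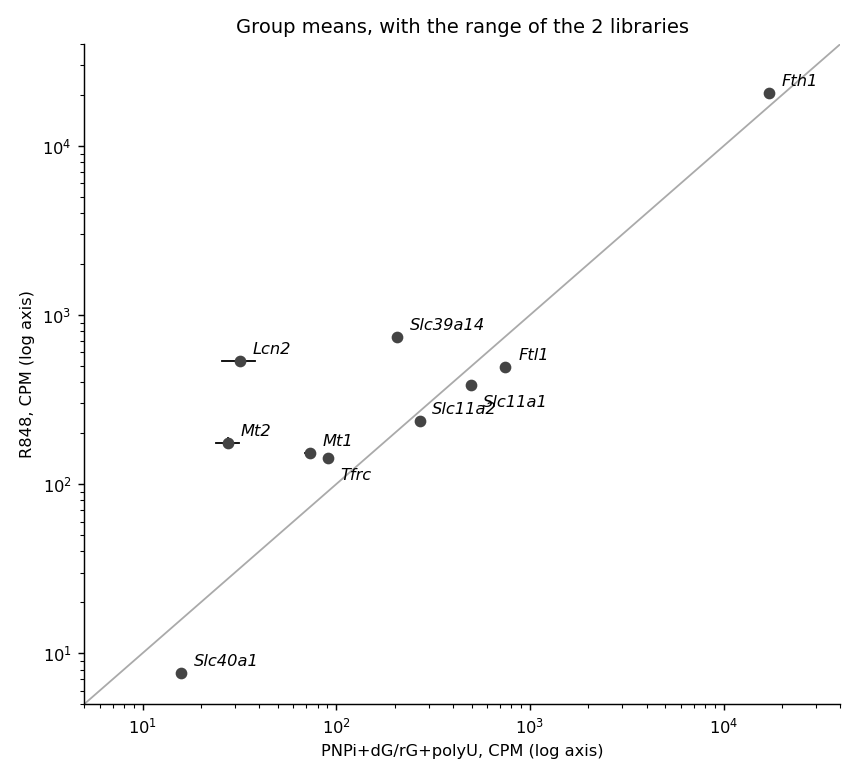
Group mean CPM of each of the 10 genes with PNPi+dG/rG+polyU (horizontal) and R848 (vertical), both on log axes, with bars for the range of the 2 libraries and a line where both are equal. *Lcn2*, *Mt2* and *Slc39a14* lie farthest above the line; *Slc40a1* lies below it, and the side on which *Slc11a1* and *Slc11a2* fall changes after centring.

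The other genes of metal handling were described from 6 lists, which with the 10 genes hold 106 genes, 71 of them tested besides the 10. Calls among these 71 numbered 3 with polyU, all higher (*Cp*, *Slc31a2* and *Spic*), where 3.21% of all genes were called higher. None was called with PNPi+dG/rG by limma, and 1 passed at any fold, the copper transporter gene *Slc31a2* (0.26). The combined treatment gave 9 higher and 6 lower, where 8.12% of all genes were called higher and 22.4% in either direction, and 10 higher and 5 lower after centring. R848 gave 11 higher and 19 lower, where 8.89% of all genes were higher and 30.3% lower. After centring that split turned to 19 higher and 8 lower, and that of the 11978 genes tested to 1792 higher and 2107 lower. The counts of each list below have these same shares of all genes beside them.

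Of 12 tested copper genes, *Cp* and *Slc31a2* were called higher with polyU, these and *Steap4* in the combined treatment, and in R848 also *Slc31a1* and *Mt2*, where 3.21%, 8.12% and 8.89% of all genes were called higher. After centring *Mt1* and *Atp7a* were added in R848. None was called lower in these comparisons, but at any fold 1 passed lower with polyU, 3 with the combined treatment and 4 with R848. After centring those passing lower numbered 2 with polyU, 0 with the combined treatment and 1 with R848. *Cp*, ceruloplasmin, a copper-carrying ferroxidase that helps iron leave cells, was at 1.63 and 1.35 CPM in vehicle, 3.13 and 4.01 in polyU, 131 and 141 in the combined treatment, and 155 and 166 in R848. Both libraries of each of these groups were above both vehicle libraries, by 2.39-fold, 91.8-fold and 108-fold (log2 1.26, 6.52 and 6.76). *Slc31a2* was at 61.3 and 61.4 CPM in vehicle, 190.4 and 204 in polyU, 422 and 417 in the combined treatment and 401 and 399 in R848 (log2 1.68, 2.77 and 2.70). *Steap4*, a metal reductase, had 0 reads in both vehicle libraries and 93 and 159 in R848, and no fold is given for it.

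In the list of iron uptake, reduction and export, 12 of 21 genes were tested, 6 of them among the 10. Higher in the combined treatment and in R848 were *Slc11a2*, *Lcn2*, *Slc39a14*, *Cp* and *Steap4*. Lower in both were *Steap3* and *Lrp1*, and lower in R848 also the metal importer gene *Slc39a8* (log2 -1.22; -0.63 after centring, which is under 2-fold). *Steap3*, the endosomal reductase that prepares iron for DMT1, was at 136 and 130.1 CPM in vehicle, 46.6 and 41.7 in the combined treatment and 9.35 and 11.1 in R848. It was 3.71 lower on the log2 scale in R848 and 1.59 lower in the combined treatment, groups in which *Slc11a2* was higher. *Lrp1*, a scavenger receptor that takes up heme with hemopexin, was at 4899 and 5247 CPM in vehicle and 1348 and 1286 in the combined treatment (log2 -1.94).

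Of 11 tested genes of storage and its regulators, *Nfe2l2* was called higher in the combined treatment, and *Nfe2l2* and *Fbxl5* were called higher and *Hfe* lower in R848, where 22.4% and 39.2% of all genes were called in either direction. After centring 4 were higher in R848, with *Fth1* and *Bach1* added, and *Hfe* was lower. *Nfe2l2* encodes NRF2, a known activator of ferritin transcription, and was at 270.2 and 270.6 CPM in vehicle and 742 and 698 in the combined treatment (log2 1.41). *Fbxl5*, whose product marks the iron regulatory protein IRP2 for degradation, was at 43.8 and 40.2 CPM in vehicle and 106 and 107 in R848 (log2 1.34, adjusted p = 6.55e-11). The iron regulatory proteins bind the hairpins shown above. Of their mRNAs, *Aco1* (IRP1) was 0.73 lower in R848 (adjusted p = 3.32e-08), but 0.13 lower after centring (adjusted p = 0.0683). *Ireb2* (IRP2) was 0.25 higher in R848 (adjusted p = 0.011), and centring adds 0.59 to that difference. *Ncoa4*, the receptor for autophagy of ferritin, was 0.45 higher in polyU (adjusted p = 0.0178) and 0.56 lower in R848 (adjusted p = 0.0016), the latter 0.03 higher after centring. *Hfe*, whose product regulates hepcidin, was at 31.4 and 33.0 CPM in vehicle and 6.16 and 6.40 in R848 (log2 -2.36).

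Among 17 tested heme genes, *Hp* and *Spic* were higher and *Flvcr1* and *Cpox* lower in the combined treatment. *Cpox* was at -1.01 on the log2 scale there and at -0.80 after centring, under 2-fold, and *Blvrb* was then called higher, at 1.19. R848 gave 3 higher, *Hp*, *Spic* and *Alas1*, and 8 lower, where 8.89% of all genes were higher and 30.3% lower, and after centring 4 higher, with *Hmox1* added, and 2 lower, *Flvcr1* among them. *Hmox1*, heme oxygenase, which frees iron from heme, was at 535 and 572 CPM in vehicle, 629 and 685 in polyU, 747 and 816 in the combined treatment and 945 and 958 in R848. It rose by 0.25, 0.50 and 0.78 on the log2 scale (adjusted p for R848 = 8.1e-10), with no library of these groups as low as vehicle. *Hp*, haptoglobin, which captures free hemoglobin, was at 0.62 and 0.28 CPM in vehicle, 3.40 and 3.38 in the combined treatment and 25.97 and 30.01 in R848. *Flvcr1*, a heme exporter, was at 161 and 155 CPM in vehicle, 43.9 and 42.2 in the combined treatment and 21.3 and 19.3 in R848 (log2 -1.87 and -2.96).

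In the mitochondrial list of 13 genes *Slc25a37* was called higher in the combined treatment and in R848, and *Hscb* was among those lower in R848, before and after centring. *Slc25a37*, mitoferrin 1, which imports iron into mitochondria, was at 60.7 and 55.3 CPM in vehicle and 235 and 224 in R848 (log2 1.99). *Hscb*, an iron-sulfur cluster chaperone, was at 15.7 in both vehicle libraries and at 2.97 and 2.42 CPM in R848 (log2 -2.55).

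Of 22 tested zinc genes, *Slc39a14*, *Slc39a13* and *S100a8* were higher and *Slc39a10* and *Slc39a6* lower in the combined treatment. In R848 *Mt2*, *Slc39a14* and *S100a8* were higher and *Slc39a8*, *Slc39a6*, *Slc39a10*, *Slc30a5* and *S100a9* lower, which became 9 higher and, for *S100a9*, 1 lower after centring. *Slc30a1*, the zinc exporter of the cell surface and a known MTF1 target like the metallothioneins, was at 37.4 and 32.2 CPM in vehicle, 50.9 and 59.1 in polyU, 52.6 and 60.01 in the combined treatment and 17.5 and 17.3 in R848. R848 was below all others for this gene and above all others for *Mt2*. The difference was 0.66 in polyU, 0.69 in the combined treatment and -0.99 in R848 (adjusted p = 4.95e-08; -0.40 after centring). The importers *Slc39a10* and *Slc39a6* were 1.81 and 1.25 lower on the log2 scale in the combined treatment, where *Slc39a14* was higher. *S100a8*, a subunit of the zinc-binding calprotectin, was at 1.57 and 2.02 CPM in vehicle, 5.38 and 3.80 in the combined treatment and 21.0 and 23.4 in R848, while its partner *S100a9* had at most 1 read in either R848 library.

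**Figure D5:**
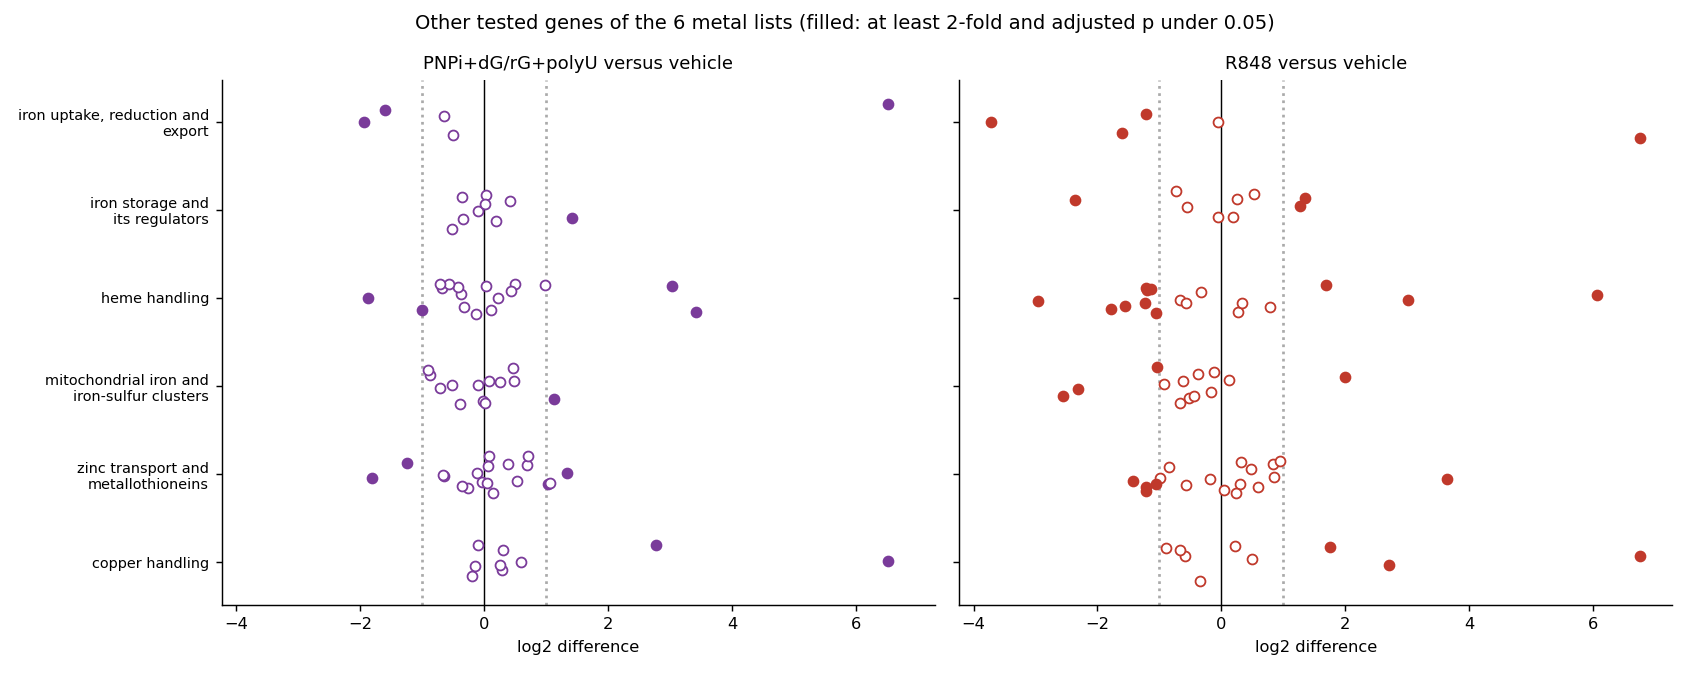
Log2 difference from vehicle of the other tested genes of the 6 metal lists, 1 row per list, with PNPi+dG/rG+polyU (left, 70 genes drawn) and R848 (right, 69 drawn); filled points are at least 2-fold with an adjusted p-value under 0.05. *Steap4* is not drawn in either panel and *S100a9* not in the right one, because the offset sets their values, and a gene of 2 lists such as *Cp* is drawn in both. *Cp* lies far to the right in both panels, and centring would move every R848 point to the right by 0.59, which turns the split of called genes from 11 higher and 19 lower to 19 higher and 8 lower.

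The genes whose pattern over the 4 log2 differences from vehicle was nearest to that of the called genes were found by Euclidean distance. The search covered the 8295 tested genes that averaged 10 CPM or more and whose symbol was not a clone or model number. For *Slc11a2* they were *Ms4a6b* (0.193), *H2-Q4* (0.207) and *Psmd10* (0.253). For *Slc39a14* they were *Gadd45a* (0.438), *Il1rn* (0.468) and *Notch1* (0.574), and for *Mt2* they were *Bnip3* (0.310), *Abtb2* (0.507) and *Mmp9* (0.760). For *Lcn2* no gene was as close, with *Cd38* (0.974), *Il4i1* (1.39) and *Inhba* (1.65) nearest. Each likeness rests on 4 differences that share the vehicle libraries.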

How the data were processed

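RNA of BMDMs was sequenced by the authors as 1 × 50 bp reads from stranded mRNA libraries. According to the methods and the submitters' processing notes, reads were demultiplexed with bcl2fastq 2.19.1.403, mapped with STAR 2.27a and counted on Ensembl release 97 of GRCm38. The authors deposited CPM, normalized in Partek Flow, plus an offset of 0.0001. The counting rule for overlapping or repeated genes is not given in the sources used here. CPM does not correct for strongly induced genes that take a larger share of a library. Depth was read from the step between low values, and all 10 columns were used.

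The log2 of the deposited CPM was fitted for all 5 groups in 1 model with limma 3.58.1 in R 4.3.3 (eBayes with trend and robust estimates, statmod 1.5.0). Tests covered 11978 genes that reached 1 CPM in 2 libraries or more, with Benjamini-Hochberg adjustment over all of them within each comparison. Calls needed an adjusted p-value under 0.05 with 2-fold or more, and intervals are 95%. A test made for read counts was not run, because the offset values are not counts. Intervals and the 3-read floor cover the spread between libraries and counting error only.

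The members and the gene lists were chosen with earlier results of these data known. All 10 genes were named. From the lists, up to 5 genes per direction and comparison with vehicle were named, those with the largest change among called genes that reached 10 CPM in both libraries of any group, together with *Aco1*, *Ireb2*, *Fbxl5*, *Ncoa4*, *Hmox1*, *Mtf1*, *Slc30a1* and *Hamp*, the ferritin pseudogenes and genes overlapping a member. Genes that complete a count of 5 or fewer (*Spic*, *Steap4*, *Slc31a1*, *Slc39a8*, *Cpox*, *Alas1*, *Atp7a*, *Bach1*, *Blvrb*, *Slc39a13*, *Slc30a5*, *S100a9*) were chosen after their values were seen. Some genes of the lists are not reported here. Lists of macrophage, neutrophil, erythroid, stromal and endothelial or epithelial markers were also summed. Erythroid markers summed to no more than 0.567 CPM. Endothelial and epithelial markers summed to 241 to 247 CPM with vehicle and 64.9 to 70.0 CPM with R848. Hairpins were searched in GENCODE M21 transcripts (Ensembl 96), promoters were taken from RefSeq (GRCm38.p6), and shared 50-base stretches were counted on either strand. Alternatives were pseudocounts of 0.1 and 1, other filters, only the groups compared, plain eBayes, centred libraries, a replicate block and leaving out each library.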

Additional observations from a re-analysis of the deposited data

Results flagged for a closer look

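The effect of PNPi+dG/rG differed with and without polyU for 2 of the 10 genes by at least 2-fold, tested as the interaction in limma. Of all genes tested, 13.4% were called in either direction and 4.55% higher, so such an interaction was not particular to these genes. For *Lcn2* the difference of the effects was 4.34 (log2, adjusted p = 9.42e-05), with 25.7 and 38.2 CPM in the combined group against at most 2.55 CPM in the polyU, PNPi+dG/rG and vehicle libraries. For *Slc39a14* it was 2.09 (adjusted p = 4.23e-11), with 198 and 212 CPM against at most 75.4 CPM in those libraries. Groups of 2 libraries were too small for a search for single libraries that stand apart.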

How the results depend on the processing

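The number of the 10 genes called kept within 1.5 times its value under the alternatives run in each comparison, with 1 exception. Without polyU replicate 2 it was 0 in polyU, because *Slc11a2* came to 0.997, so the range on leaving out a library was 0 to 1.

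Centring reversed 9 of the 70 differences. These were *Mt2* in polyU (-0.0177), *Slc39a14* in PNPi+dG/rG (-0.0232), *Slc11a1* in R848 (0.52), *Slc40a1* (0.10), *Slc11a1* (0.0845) and *Mt1* (0.0920) between the combined treatment and polyU, *Slc11a1* (-0.0208) and *Slc11a2* (-0.19) between the combined treatment and R848, and the interaction of *Slc11a1* (0.14). It also brought the genes called in R848 to 6, all higher, with *Fth1* and *Mt1* added. Of all 11978 genes tested, centring brought those called higher in R848 from 1065 to 1792, and those called lower from 3633 to 2107. Leaving out a library gave ranges across 0 for *Mt2* in polyU (-0.0514 to 0.10), for *Tfrc* in R848 (-0.0647 to 0.0705), and in PNPi+dG/rG for *Fth1* (-0.0130 to 0.10), *Ftl1* (-0.0492 to 0.0318), *Tfrc* (-0.0232 to 0.11), *Lcn2* (-0.0852 to 0.30) and *Slc39a14* (-0.0469 to 0.0654). None of these 7 passed with all libraries in. *Ftl1* in R848 reached -1.001 without R848 replicate 2, and *Slc40a1* between the combined treatment and R848 came to 0.96 with a pseudocount of 1. The other filters, plain eBayes, a pseudocount of 0.1 and the fit of only the groups compared changed no call of the 10 genes.

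The replicate numbers did not pair the samples, as the correlation of same-numbered deviations had a median of -0.023 (range -0.286 to 0.109) and only 1 of 10 group pairs was over 0.1. A replicate block changed no call of the 10 genes, with 3 called in the combined treatment and 4 in R848. Depth limits *Lcn2* in vehicle, polyU and PNPi+dG/rG, with 19 to 98 reads per library.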
